A study of Mus musculus with 7 samples.

Results

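The mitochondrial solute carriers are the proteins of the *Slc25* family, and the genes described here are all those whose mouse symbol starts with Slc25 and that had at least 10 counts in at least 3 libraries. Of 47 such genes in the count table, 41 met this minimum, among 13894 genes that met it in all. RNA was taken from powdered left ventricles of 3 WT mice (replicates 1, 3 and 4) and 4 mice homozygous for titin A178D (replicates 1 to 4), all on C57BL/6J, and sequenced as stranded poly(A) libraries with 1 library per heart. A178D is a missense change in titin, the giant spring protein of the sarcomere, and was introduced by CRISPR editing of C57BL/6N embryonic stem cells that were clonally expanded, followed by at least 5 generations of backcrossing before the WT and A178D littermates were bred. The labels give neither age nor sex for these 7 hearts, and no drug treatment is named for them. The comparison asks which carrier transcripts differ between A178D and WT hearts.

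Carriers of this family sit almost entirely in the inner mitochondrial membrane and exchange nucleotides, phosphate, amino acids, fatty acyl groups, metal ions and cofactors between the cytosol and the matrix. Each is built from repeats of a short membrane-spanning module, and most work as exchangers that move a substrate in and another out. In heart muscle the ADP/ATP carrier and the phosphate carrier feed ATP synthase and deliver its product, and other members carry reducing equivalents and acylcarnitines for oxidation.

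The WT libraries held 51797208, 54245530 and 41102868 counts, and the A178D libraries held 40623300, 52345529, 42174448 and 33080675 counts for replicates 1 to 4. Levels are given as CPM, in which each count is divided by its library's size after TMM scaling. Where genes are compared with each other, CPM per kilobase of the longest annotated coding transcript is used. Log2 fold changes are A178D over WT from edgeR's quasi-likelihood test, and a gene was called when its Benjamini-Hochberg adjusted p over all tested genes was under 0.05. *Ttn* itself (chromosome 2, 76703980 to 76982547, GRCm38) stood at 7245, 6247 and 6486 CPM in the WT hearts and at 5361, 6174, 6490 and 4087 in the A178D hearts. Its groups overlapped and its log2 fold change was -0.27 ± 0.12 (SE), with an edgeR adjusted p of 0.287. A count per gene cannot read the substitution, so the genotype labels were not checked by it.

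No *Slc25* gene was called by edgeR, where 1.04% of all tested genes (145) were called higher and 1.31% (182) lower in A178D. These totals were 22 and 31 without WT replicate 3 and 215 and 238 without WT replicate 1. At an unadjusted p under 0.05, 7 of the 41 were higher, against 7.93% of all genes, and 1 was lower, against 8.81%. Leaving out single hearts gave from 4 to 9 higher and 1 or 2 lower, with the fewest higher without WT replicate 3 (4 higher and 2 lower, against 6.08% and 6.44% of all genes) and the most without A178D replicate 4 (9 and 1, against 7.84% and 9.01%). In the fit of all 7 hearts the 7 were *Slc25a22*, *Slc25a34*, *Slc25a23*, *Slc25a42*, *Slc25a5*, *Slc25a20* and *Slc25a18*, and the 1 was *Slc25a27*. In total these 8 made up 19.5% of the carriers, and 16.7% of all tested genes had such a p. DESeq2's Wald test called *Slc25a22* and *Slc25a34* higher and *Slc25a27* lower, while it called 2.29% of the genes to which it gave an adjusted p higher and 2.85% lower. With limma-voom 0 carriers were called, while it called 1.07% of all tested genes higher and 1.28% lower.

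The median log2 fold change of the 41 carriers was 0.059 and that of all tested genes was 0.0023. The carriers' median ranged from 0.046 without WT replicate 4 to 0.11 without WT replicate 1. Of the carriers, 28 were above 0 and 13 below, or 68.3% above against 50.5% of all tested genes. With offsets for how counts depend on the length and GC content of transcripts in each library, the median over the carriers was 0.013 and 24 were above 0. The median of all tested genes was then -0.0057. The 95% confidence interval of the log2 fold change lay within -0.5 and 0.5 for 34 of the 41, which leaves larger changes outside the intervals of these genes. For the other 7 the interval reached beyond these limits. The WT and A178D hearts did not overlap in 7 carriers that were higher in A178D, against 7.61% of all tested genes, and in 1 that was lower, against 8.52%. The 7 were *Slc25a22*, *Slc25a34*, *Slc25a23*, *Slc25a5*, *Slc25a20*, *Slc25a32* and *Slc25a51*, and the 1 was *Slc25a27*.

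**Figure D1:**
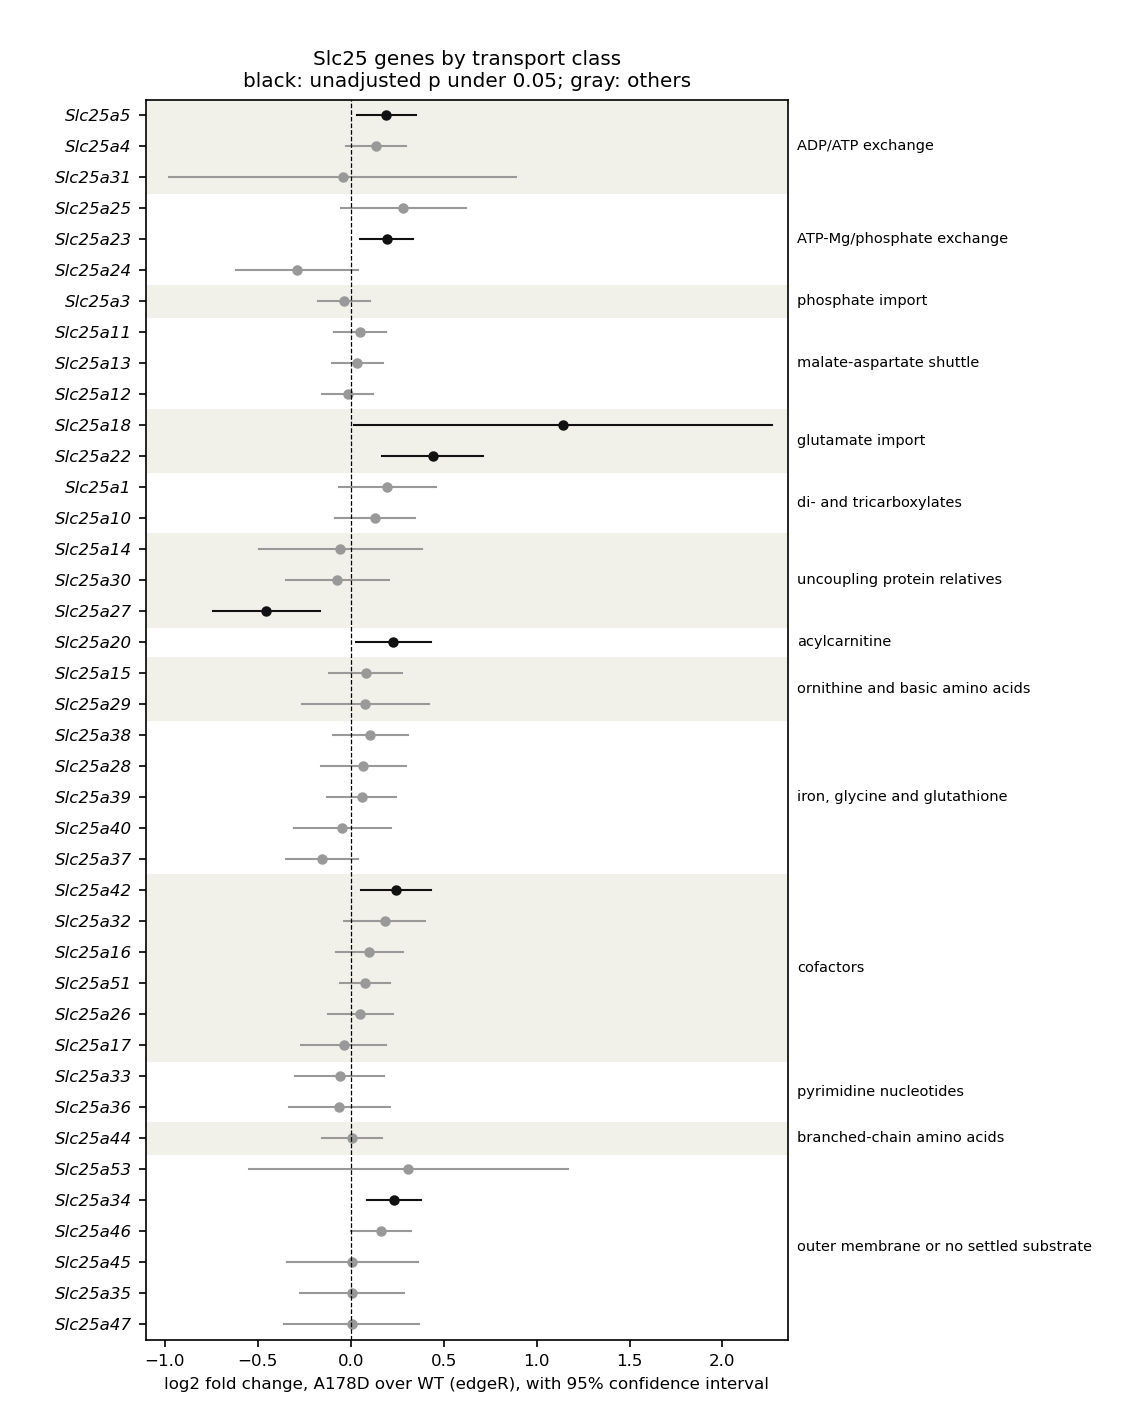
Log2 fold change (A178D over WT, x axis) with its 95% confidence interval for 40 *Slc25* genes, grouped by transport class, from edgeR on 3 WT and 4 A178D hearts. The 8 genes in black have an unadjusted p under 0.05, and *Slc25a27* is the 1 of them below 0, at -0.45.

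The carriers differed in level far more than the genotypes did. Per kilobase of transcript, *Slc25a4* stood at 3577 ± 316 CPM per kilobase (SD, n = 7 hearts), *Slc25a3* at 736 ± 31.3, *Slc25a11* at 460 ± 20, *Slc25a5* at 228 ± 21.1 and *Slc25a20* at 160 ± 19.7. These 5 held 88.9% of the summed level per kilobase of all 41, and *Slc25a4* alone held 61.6%. The ranges over the 7 hearts of neighbours in this order did not overlap. The next levels were those of *Slc25a34* at 118 ± 11, *Slc25a39* at 96.9 ± 8.98, *Slc25a13* at 71 ± 2.21, *Slc25a12* at 53.1 ± 1.49 and *Slc25a42* at 37.6 ± 4.56 CPM per kilobase. The ranges of *Slc25a20* and *Slc25a34* overlapped, as did those of *Slc25a34* and *Slc25a39*, while *Slc25a39*, *Slc25a13*, *Slc25a12* and *Slc25a42* lay apart from each other. In CPM, 10 carriers had a mean of at least 100, 20 lay between 10 and 100, and 11 lay under 10. Of the latter, *Slc25a31*, *Slc25a53* and *Slc25a18* were under 1 CPM.

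**Figure D2:**
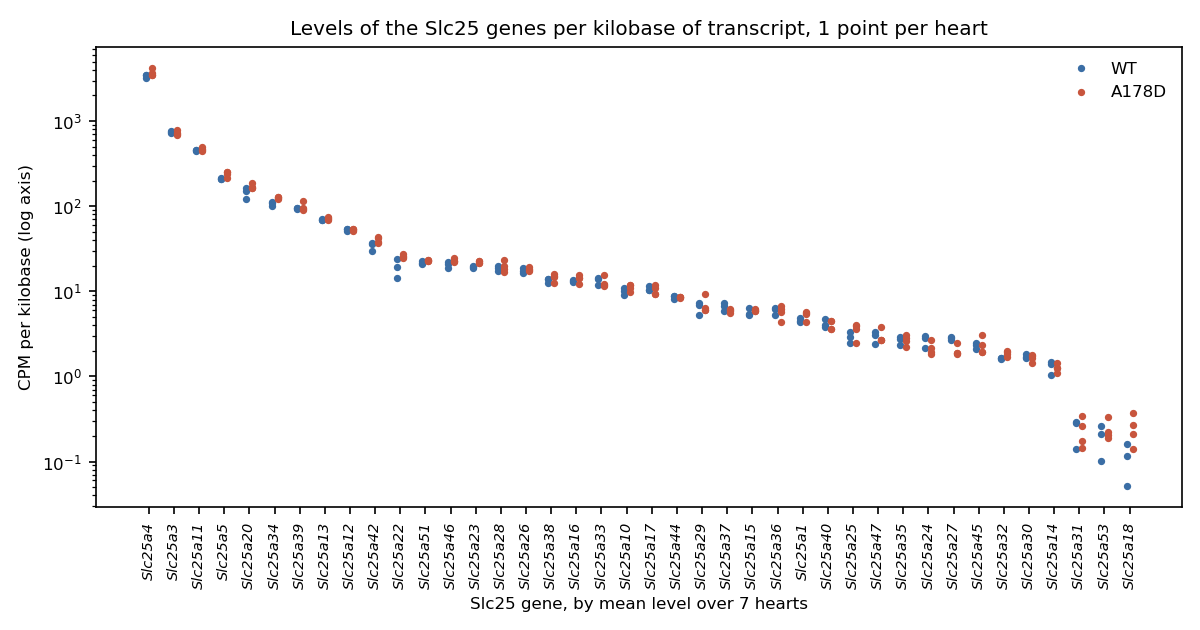
Level of 40 *Slc25* genes in CPM per kilobase of transcript (log axis), ordered by the mean over 7 hearts, with 1 point per heart for WT (blue) and A178D (red). *Slc25a4* leads at a mean of 3577 and *Slc25a18* is lowest at 0.189. The points of both genotypes stand side by side, at similar heights for most genes, on an axis too long to show small changes.

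The 6 carriers below the count minimum are named with their counts. *Slc25a54*, *Slc25a48* and *Slc25a41* had 1, 2 and 6 counts in all 7 libraries together, each from a single A178D heart. *Slc25a21*, the 2-oxodicarboxylate carrier, had 18 counts in total and *Slc25a2*, an ornithine carrier, had 43, with at most 10 in a library. *Slc25a43* had 50, of which 22 came from A178D replicate 2. Just inside the minimum lay *Slc25a18* with between 4 and 29 counts per library, *Slc25a31* with 10 to 38 and *Slc25a53* with 13 to 56. Odd numbers made up only 17.6 to 20.3% of the counts from 1 to 20 in these libraries, so that fewer fragments than counts may stand behind a low value.

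The ADP/ATP carriers swap cytosolic ADP for matrix ATP. *Slc25a4* (ENSMUSG00000031633, chromosome 8, 46206797 to 46211284), the form typical of heart and skeletal muscle, stood at 6205, 6668 and 6694 CPM in the WT hearts and at 7139, 6700, 6669 and 8122 CPM in A178D replicates 1 to 4. Only replicates 1 and 4 lay clearly above the WT hearts, and replicate 3 fell within their range. Between the genotypes the log2 fold change was 0.13 ± 0.075 (SE) and the edgeR adjusted p was 0.398, while the value was 0.068 without A178D replicate 4 and 0.068 with the length and GC offsets. *Slc25a5* (chromosome X, 36795651 to 36798807), the form of most other tissues, had 258, 264 and 261 CPM in the WT hearts and 314, 265, 297 and 317 in the A178D hearts. All 4 A178D hearts were above the WT hearts, replicate 2 by a margin smaller than the spread of the WT hearts. This gave a log2 fold change of 0.19 ± 0.074 (SE) with an edgeR adjusted p of 0.211, and 0.093 with the length and GC offsets. *Slc25a31*, the form of male germ cells, had 0.499 CPM on average and a log2 fold change of -0.044, with an interval from -0.98 to 0.89 that holds changes of either direction.

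The ATP-Mg/phosphate carriers, which calcium regulates, set the adenine nucleotide content of the matrix. *Slc25a23* had 66.8, 65.3 and 62.9 CPM in the WT hearts and 76.5, 72.2, 75.5 and 73.2 in the A178D hearts. The groups lay apart, and each was narrow, with SDs of 1.96 (n = 3) and 1.99 (n = 4). Its log2 fold change was 0.19 ± 0.066 (SE), higher in 4 of 4 A178D hearts, with an edgeR adjusted p of 0.161. Its relatives *Slc25a24* (log2 fold change -0.29) and *Slc25a25* (0.28) pointed in opposite directions, with adjusted p values of 0.369 and 0.392 in edgeR and overlapping groups. *Slc25a23* has the low *Slc25a41* as its neighbour on chromosome 17, with 2057 bases between the annotated genes, and *Slc25a24* follows *Slc25a54* on chromosome 3.

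*Slc25a3*, the phosphate carrier, which supplies ATP synthase and also carries copper, had 1172, 1221 and 1216 CPM in the WT hearts and 1117, 1181, 1138 and 1262 in the A178D hearts. The groups overlapped, with both the lowest and the highest value in A178D. The log2 fold change was -0.035 ± 0.065 (SE), with a 95% confidence interval from -0.17 to 0.10 and an edgeR adjusted p of 0.838. It was -0.11 with the length and GC offsets and from -0.071 to -0.011 without single hearts, where A178D replicate 4 left out gave the former and A178D replicate 1 the latter.

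The malate-aspartate shuttle brings cytosolic NADH equivalents into the matrix with 2-oxoglutarate/malate and aspartate/glutamate exchangers. *Slc25a11*, the 2-oxoglutarate carrier, had 758, 778 and 779 CPM in the WT hearts and 795, 775, 764 and 859.7 in the A178D hearts. *Slc25a12* (aralar) had 328, 344 and 346 CPM against 347, 339, 323 and 333, and *Slc25a13* (citrin) had 218, 216 and 221 against 226, 220.1, 235 and 215. In all 3 genes the groups overlapped. Their log2 fold changes were 0.049, -0.016 and 0.036, with standard errors of 0.065, 0.063 and 0.063 and edgeR adjusted p values from 0.757 to 0.932. The signs of *Slc25a11* and *Slc25a12* turned with the length and GC offsets, to -0.031 and 0.058. The value of *Slc25a11* was 0.012 without A178D replicate 4, and that of *Slc25a13* was 0.013 without A178D replicate 3.

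The glutamate carriers import glutamate with a proton. *Slc25a22* (ENSMUSG00000019082, chromosome 7, 141429744 to 141437892) had 54.4, 40.5 and 66.7 CPM in WT replicates 1, 3 and 4 and 71.1, 78.1, 73.7 and 69.2 in the A178D hearts. The WT hearts were spread widely, with replicate 3 lowest and replicate 4 close to the A178D hearts, which lay together above them. On the log2 scale the fold change was 0.44 (SE 0.13, 95% confidence interval 0.17 to 0.71) and the edgeR adjusted p was 0.0908. Without WT replicate 3 it was 0.27, and without WT replicate 4 it was 0.62 with an edgeR adjusted p of 0.0403, within a range of 0.0197 to 0.277 over 17 alternatives, of which the lowest was that of DESeq2. *Slc25a18* had 0.304, 0.22 and 0.0984 CPM in the WT hearts and 0.719, 0.266, 0.515 and 0.401 in the A178D hearts. A178D replicate 2 lay inside the WT range, and all 7 values rest on at most 29 counts. A log2 fold change of 1.14 had a 95% confidence interval from 0.02 to 2.27 and an edgeR adjusted p of 0.289. *Slc25a18* had 16, 12 and 4 counts in the WT hearts, so that it met the count minimum only with the A178D hearts. Its unadjusted p in edgeR was under 0.05 in 2 of 7 fits that left out a heart.

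**Figure D3:**
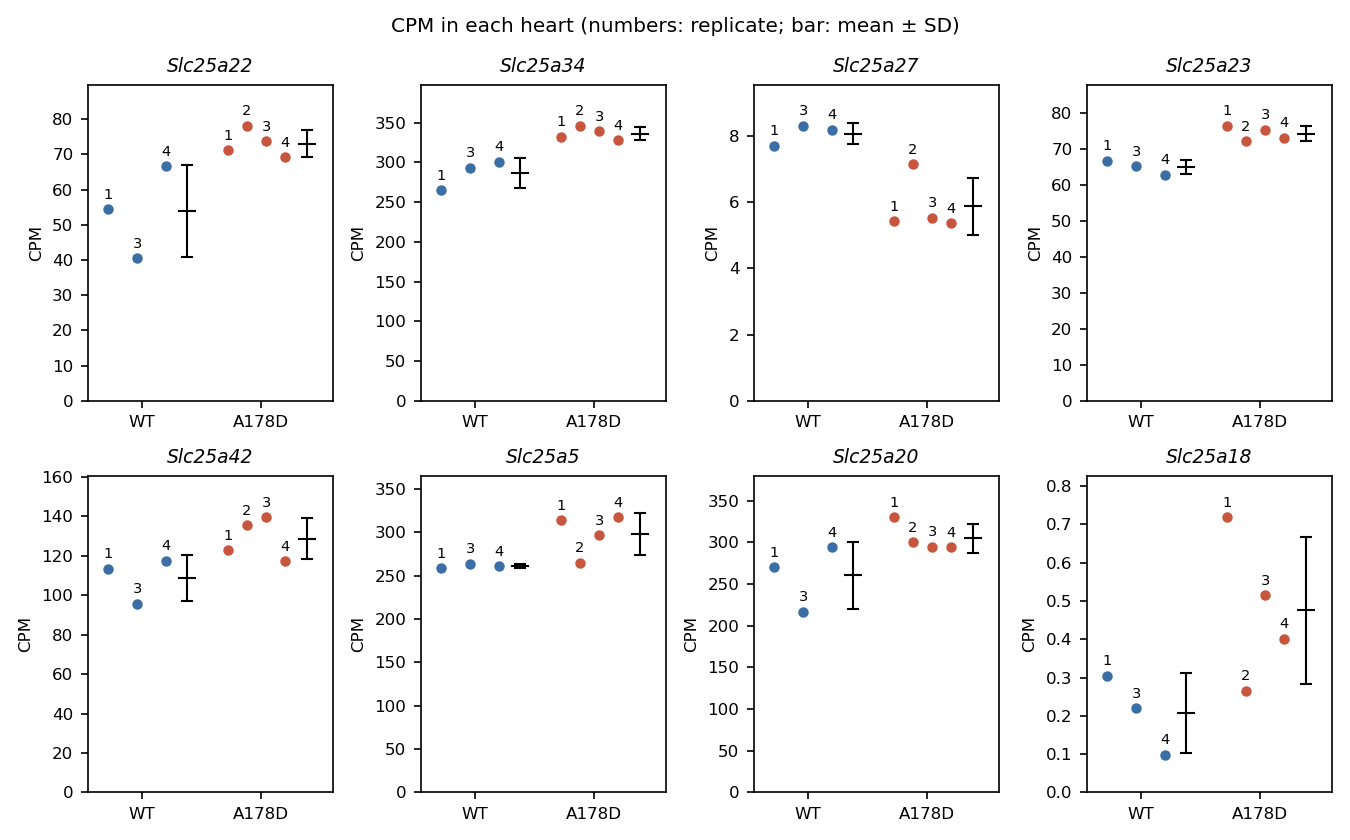
CPM (y axis, from 0) in each heart for the 8 *Slc25* genes with an unadjusted p under 0.05 in edgeR, WT in blue and A178D in red, with replicate numbers and the mean ± SD of 3 WT and 4 A178D hearts in black. The groups lie apart in 6 of the panels and overlap in those of *Slc25a42* and *Slc25a18*, and WT replicate 3 is the lowest heart for *Slc25a22*, *Slc25a42* and *Slc25a20*.

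*Slc25a20* is the carnitine/acylcarnitine carrier, through which long-chain fatty acids enter the matrix. It had 270.2, 217 and 294 CPM in the WT hearts and 330.2, 300.2, 295 and 294 in the A178D hearts. WT replicate 4 and A178D replicate 4 were nearly equal at 294.2 and 294.4 CPM, and WT replicate 3 was the lowest heart. It had a log2 fold change of 0.23 ± 0.094 (SE) with an edgeR adjusted p of 0.241. Without WT replicate 3 it was 0.11.

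The citrate carrier *Slc25a1* and the dicarboxylate carrier *Slc25a10*, which exchange Krebs cycle acids with the cytosol, had mean levels of 8.28 and 21.6 CPM and log2 fold changes of 0.20 and 0.13. Both groups overlapped in each of them, with adjusted p values of 0.455 and 0.556 in edgeR.

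Relatives of the uncoupling proteins were low. *Slc25a27* (chromosome 17, 43641891 to 43667214), known from brain, had 7.71, 8.31 and 8.2 CPM in the WT hearts and 5.43, 7.15, 5.53 and 5.37 in the A178D hearts. All 4 A178D hearts were below the WT hearts, and A178D replicate 2 was nearest to WT. The log2 fold change was -0.45 (SE 0.13, 95% confidence interval -0.74 to -0.17), with an adjusted p of 0.1 in edgeR and of 0.0473 in DESeq2, in a range of 0.0464 to 0.279 over 17 alternatives. Without single hearts it ranged from -0.56 to -0.41. *Slc25a14* and *Slc25a30* had log2 fold changes of -0.056 and -0.072, and their groups overlapped.

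Among carriers of ornithine and basic amino acids, *Slc25a15* and *Slc25a29* had log2 fold changes of 0.08 and 0.079. *Slc25a29* had its highest value, 18.2 CPM, in A178D replicate 4, where the other 6 hearts lay between 10.3 and 14.3 CPM. Its neighbour *Slc25a47*, which starts 163 bases away on the opposite strand of chromosome 12, was also highest in that heart, at 7.26 CPM.

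The mitoferrins bring iron to the matrix for heme and iron-sulfur clusters. *Slc25a37* (mitoferrin-1), the form of erythroid cells, had 30.1, 24.4 and 28 CPM in the WT hearts and 25.1, 24.3, 23.2 and 26.2 in the A178D hearts. *Slc25a28* (mitoferrin-2) had 26.3, 30.7 and 28.6 against 25.8, 28.3, 30.1 and 35.6 CPM. Both overlapped between the genotypes, with log2 fold changes of -0.16 ± 0.091 (SE) and 0.067 ± 0.11 and edgeR adjusted p values of 0.422 and 0.805. The value of *Slc25a37* was -0.083 without WT replicate 1 and -0.24 without WT replicate 3. That of *Slc25a28* was -0.02 with the length and GC offsets and -0.024 without A178D replicate 4. *Slc25a38*, which supplies glycine for heme, and *Slc25a39* and *Slc25a40*, which import glutathione, had log2 fold changes of 0.11, 0.059 and -0.045 with overlapping groups.

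Cofactor carriers bring in coenzymes made outside the matrix. *Slc25a42*, which imports coenzyme A, had 114, 95.7 and 117 CPM in the WT hearts and 123, 136, 139 and 117 in the A178D hearts. The groups met at WT replicate 4 (117.4) and A178D replicate 4 (117.1), and WT replicate 3 was lowest. This was a log2 fold change of 0.24 ± 0.087 (SE) with an edgeR adjusted p of 0.181, and 0.16 without WT replicate 3. *Slc25a51*, the NAD carrier, was narrow in both groups, at 96.7 ± 3.53 (SD, n = 3) and 102 ± 1.13 CPM (SD, n = 4), with a log2 fold change of 0.077. *Slc25a32*, linked to folate and FAD, had a log2 fold change of 0.18 and an edgeR adjusted p of 0.391, and a further entry without a name in the annotation used has the same counts, as is also the case for *Slc25a31*. *Slc25a16* (0.10), *Slc25a26* for S-adenosylmethionine (0.052) and the peroxisomal *Slc25a17* (-0.038) had overlapping groups, with their log2 fold changes in brackets.

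The pyrimidine nucleotide carriers *Slc25a33* and *Slc25a36*, which serve mitochondrial DNA and RNA synthesis, had log2 fold changes of -0.058 and -0.061, with overlapping groups. *Slc25a44*, the carrier of branched-chain amino acids, stood at 30.5 ± 1.22 CPM in WT (SD, n = 3) and 30.6 ± 0.417 in A178D (SD, n = 4), with a log2 fold change of 0.0079 ± 0.074 (SE) and a 95% confidence interval from -0.15 to 0.17. *Slc25a48*, linked to choline, was below the count minimum.

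Among members without a settled substrate, *Slc25a34* (ENSMUSG00000040740, chromosome 4, 141618824 to 141623821) ranked 6 of the 41 per kilobase. It had 265, 293 and 301 CPM in the WT hearts and 332, 346, 339 and 328 in the A178D hearts. The groups lay apart, with the 4 A178D hearts close together. It had a log2 fold change of 0.23 (SE 0.067, 95% confidence interval 0.086 to 0.38), with an adjusted p of 0.098 in edgeR and 0.0249 in DESeq2, in a range of 0.0249 to 0.271 over 17 alternatives. *Slc25a46*, an outer membrane member linked to mitochondrial dynamics, had 90 ± 6.92 CPM in WT (SD, n = 3) and 100.7 ± 5.51 in A178D (SD, n = 4), with overlapping groups, a log2 fold change of 0.16 and an edgeR adjusted p of 0.299. *Slc25a35*, *Slc25a45* and *Slc25a47* had log2 fold changes of 0.006, 0.0095 and 0.005, and the low *Slc25a53* had 0.31 with an interval from -0.55 to 1.17.

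For 4 pairs of carriers with the same substrate, the share of each form was computed from counts per kilobase. The 3 WT and 4 A178D hearts were compared by exact permutation, two-sided, which cannot give a p below 0.0286, with adjustment over the 4 shares. *Slc25a5* made up 6.07, 5.78 and 5.71% of *Slc25a4* plus *Slc25a5* in the WT hearts and 6.39, 5.78, 6.46 and 5.72% in the A178D hearts (exact permutation p = 0.343, adjusted p = 0.457). *Slc25a13* made up 57.4, 56.1 and 56.5% of the aspartate/glutamate carriers in WT and 57, 56.9, 59.7 and 56.8% in A178D (exact permutation p = 0.486, adjusted p = 0.486), where the difference of 0.87 percentage points was 0.18 without A178D replicate 3 and turned to -0.39 with the length and GC offsets. In both pairs the groups overlapped. *Slc25a37* made up 29.6, 22.6 and 26.5% of the mitoferrins in WT and 26.4, 24, 22.1 and 21.3% in A178D (exact permutation p = 0.229, adjusted p = 0.457). *Slc25a18* made up 0.816, 0.793 and 0.217% of the glutamate carriers in WT and 1.47, 0.498, 1.02 and 0.847% in A178D (exact permutation p = 0.314, adjusted p = 0.457). These groups overlapped as well. By exact permutation a share that is alone at the smallest p has an adjusted p of 0.114, and 3 of the 4 would have to be there to pass, so this test could not call a single share. Per kilobase, *Slc25a4*, *Slc25a13*, *Slc25a28* and *Slc25a22* were the larger form of their pair in all 7 hearts. In CPM, without division by length, *Slc25a12* lay above *Slc25a13* in all 7 hearts. *Slc25a37* then lay above *Slc25a28* in WT replicate 1 (30.1 against 26.3 CPM).

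Summed over the 41 carriers, the level was 10510, 10980 and 11140 CPM in the WT hearts and 11690, 11210, 11150 and 12840 in the A178D hearts. *Slc25a4* made up most of the sum, and WT replicate 4 and A178D replicate 3 were nearly equal. Per kilobase the same 2 hearts overlapped, at 5692 and 5680, while without *Slc25a4* the WT hearts reached 4451 CPM and the A178D hearts started at 4478. A178D replicate 4 was the highest heart for 14 of the 41 carriers and WT replicate 4 the lowest for 12. A178D replicate 4 also had the smallest library, the lowest level of the very long *Ttn* transcript, and the largest median length and GC trend at the carriers, which at *Slc25a4* amounted to 0.079 on the log2 scale there and to -0.064 in WT replicate 1. The part of these trends in the carriers' values beyond the offsets above was not tested.

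The carriers' surroundings were read from lists of related genes. Of 15 enzymes and transporters that work with the carriers in shuttles, *Gpd1*, the cytosolic enzyme of the glycerol phosphate shuttle, was the 1 gene called, and 3 were higher and 1 lower at an unadjusted p under 0.05. Of all tested genes, 1.04% were called higher and 1.31% lower, and 7.93% were higher and 8.81% lower at that unadjusted p. *Gpd1* had 94.7, 83 and 88.2 CPM in the WT hearts and 111, 103.8, 112 and 112 in the A178D hearts. The groups lay apart, the log2 fold change was 0.31 ± 0.071 (SE) and the edgeR adjusted p was 0.0359. It was called in 2 of 7 fits that left out a heart, those without WT replicate 1 and without A178D replicate 4, while its log2 fold change stayed between 0.27 and 0.36 over the 7 fits, and its adjusted p ranged from 0.00253 to 0.195 over 17 alternatives in edgeR, limma-voom and DESeq2. With a block for replicate number it was not called (0.34, edgeR adjusted p = 0.068), while with this block and the length and GC offsets it was (0.32). The other higher genes at an unadjusted p under 0.05 were *Ckmt2* (log2 fold change 0.27, edgeR adjusted p = 0.0921) and *Cpt1a* (0.23, edgeR adjusted p = 0.25). The 1 lower gene was *Gpd2*, the mitochondrial enzyme of the glycerol phosphate shuttle, which was singled out after its values were seen. It had 22.9, 21.6 and 22.2 CPM in the WT hearts and 19.7, 20.6, 19.2 and 18 in the A178D hearts, all 4 below WT, with a log2 fold change of -0.20 ± 0.085 (SE) and an edgeR adjusted p of 0.263. The median log2 fold change of this list was 0.088, against 0.0023 for all tested genes.

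For 13 genes of the import route for carrier proteins, through the outer membrane and the TIM22 complex, the median log2 fold change was 0.14. That of all tested genes was 0.0023. Of these 13, 0 were called by edgeR, against 1.04% of all tested genes called higher and 1.31% lower. An unadjusted p under 0.05 was found for 3, all higher in A178D, against 7.93% of all tested genes. The largest were *Timm10*, a chaperone of the intermembrane space (log2 fold change 0.35 ± 0.093 (SE), edgeR adjusted p = 0.0702), and *Timm22*, the channel of that complex (0.32 ± 0.099, edgeR adjusted p = 0.12). *Timm10* had 46, 44.6 and 45.3 CPM in the WT hearts and 63.5, 49.8, 53.3 and 63.9 in the A178D hearts, with all A178D hearts above WT and replicates 1 and 4 highest. *Timm22* had 33.9, 31.3 and 30.7 against 44.6, 35.1, 36 and 43.9 CPM, again with A178D replicates 1 and 4 highest.

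The member rule, which goes by symbol, left out related carrier genes with other symbols, of which 4 were measured. Among them the 1 with an unadjusted p under 0.05 was *Ucp3*, an uncoupling protein of muscle. It had 62.3, 51.2 and 129 CPM in the WT hearts and 156, 165, 152 and 119 in the A178D hearts. WT replicate 4 lay within the A178D range, and the log2 fold change was 0.88 ± 0.24 (SE) with an edgeR adjusted p of 0.0717. Of 18 genes of other inner membrane transport, 0 were called by edgeR and 2 had an unadjusted p under 0.05, *Sfxn2* (log2 fold change -0.41, edgeR adjusted p = 0.204) and *Smdt1*, a subunit of the calcium uniporter (0.20, edgeR adjusted p = 0.252). Of all tested genes, 16.7% had such an unadjusted p. The 3 porins of the outer membrane, *Vdac1*, *Vdac2* and *Vdac3*, had log2 fold changes from -0.046 to 0.035, with 0 called and 0 at an unadjusted p under 0.05. The 13 genes of the mitochondrial genome are listed at 0 in every library, so that nuclear carriers cannot be set against them.

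Cell type markers were read in the same libraries, since in bulk tissue fewer cells of a type and less RNA per cell cannot be told apart. The 8 cardiomyocyte markers, led by *Myh6*, summed to 96210, 102300 and 101600 CPM in the WT hearts and 96930, 96700, 95060 and 104500 in the A178D hearts. By edgeR 0 were called, and 1 (*Actc1*, log2 fold change 0.13) had an unadjusted p under 0.05, against 16.7% of all tested genes. Log2 fold changes were above 0 for 3 of the 8 and below 0 for 5, with *Ryr2* lowest at -0.20. *Myh6* was at -0.11, with its A178D hearts all below the WT hearts, while those of *Actc1* were all above. The atrial markers *Myl7*, *Sln* and *Bmp10* were at 0 in at least 1 heart each, and *Myl4* and *Nr2f2* had log2 fold changes of 0.65 and -0.39 at unadjusted p values under 0.05 with 0 of the list called. The mural list, led by *Acta2*, summed to 815, 813 and 744 CPM in WT and 518, 602, 625 and 565 in A178D. *Acta2* (log2 fold change -0.59), *Tagln* (-0.62), *Myh11* and *Cnn1*, 4 of its 8 genes, were called lower by edgeR, against 1.31% of all tested genes. At an unadjusted p under 0.05, 6 of the 8 were lower, against 8.81% of all tested genes. *Myh11* (log2 fold change -0.67) was not called without WT replicate 3 (-0.73) or 4 (-0.71). *Cnn1* (-0.82) was called in 1 of the 7 fits without a heart, with values from -0.96 to -0.63 over these fits. With a block for replicate number *Cnn1* was not called (-0.86, edgeR adjusted p = 0.0617).

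The fibroblast list, led by *Dcn*, summed to 1178, 1205 and 1090 CPM in WT and 1407, 1332, 1277 and 1297 in A178D, and *Col3a1*, 1 of its 8 genes, was called higher (log2 fold change 0.62, edgeR adjusted p = 0.0317), as it was in 3 of 7 fits without a heart, and in the 4 that lost the call its log2 fold change was 0.60 to 0.67. With *Col1a1* (0.45), *Col1a2* (0.26) and *Lum* (0.19), 4 of the 8 had an unadjusted p under 0.05, all higher in A178D, while *Dcn* (0.0026), *Tcf21* (0.043), *Pdgfra* (-0.060) and *Postn* (-0.069) were near 0. Of all tested genes, 1.04% were called higher, and 7.93% were higher at an unadjusted p under 0.05. The macrophage list, led by *Csf1r*, summed to 203, 266 and 231 CPM in WT and 269, 280.4, 248 and 279 in A178D, with 0 of 8 called and *C1qb* (0.50) and *Adgre1* (0.33) as the largest log2 fold changes among its 3 genes at an unadjusted p under 0.05. The endothelial list, led by *Fabp4*, summed to 1592, 1547 and 1534 against 1557, 1550, 1639 and 1720 CPM, with 0 of 8 called. *Cldn5* (0.39) was the 1 gene at an unadjusted p under 0.05, against 16.7% of all tested genes. Of the 8, 5 had log2 fold changes above 0 and 3 below, *Tek* (-0.13), *Cdh5* (-0.11) and *Pecam1* (-0.075). Erythrocyte and adipocyte lists, led by *Hbb-bs* and *Car3*, had means of 109 and 1.96 CPM in WT and 121 and 1.39 in A178D, with overlapping groups, 0 of 5 measured genes called in each, and the adipocyte genes *Retn* and *Lep* at 0 in at least 1 heart. The part of these cell types in the carriers' values was not tested.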

How the data were processed

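RNA of 7 left ventricles was sequenced, and the authors deposited raw counts per gene without normalization. The submitters' processing notes name HISAT2 2.1.0, SAMtools 1.6, DESeq2 1.26.0 and GRCm38, and the counting program and the handling of reads shared by paralogs and pseudogenes are not given in the sources used here, which leaves *Slc25a4* and *Slc25a5* uncertain. A second table, of counts scaled by size factors, was not used. Ensembl identifiers were matched to GENCODE M21, with 268 of 21257 entries left unnamed, and sets of entries with the same counts and at least 30 in total were reduced to 1 (223 removed, which applied to *Slc25a31* and *Slc25a32*). Below 30 in total, 107 entries that repeated both an identifier and its counts were removed, leaving 20927.

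Genotypes were compared with edgeR 4.0.16 in R 4.3.3 (TMM, glmQLFit, glmQLFTest, no covariate, at least 10 counts in at least 3 libraries, Benjamini-Hochberg adjustment over 13894 genes), which was tested on simulated data. Intervals are 95% confidence intervals of that model. DESeq2 1.42.0, limma-voom 3.58.1, mgcv 1.9.3 offsets (basis size 6) and further alternatives are covered at the end. Values in every heart are given for carriers with an adjusted or unadjusted p under 0.05, the 5 highest per kilobase and the pairs behind the shares. Of other lists, called genes are named, or else the 2 largest changes at an unadjusted p under 0.05. Added after their values were seen were *Gpd2*, *Ckmt2*, *Cpt1a*, *Ryr2*, *Tek*, *Cdh5*, *Pecam1*, the changes of *Myh6*, and the remaining fibroblast genes. Some items are not reported here. The members and lists were chosen with earlier results of these data known. The p-values set the difference between genotypes against the variation between hearts.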

Additional observations from a re-analysis of the deposited data

Results flagged for a closer look

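Among 21 sets of 4 A178D values that were examined for a heart far from the others, 3 had such a heart, and chance gives about 1 in 20. For *Slc25a27*, A178D replicate 2 had 7.15 CPM where the other A178D hearts had 5.37 to 5.53. For *Slc25a20*, A178D replicate 1 had 330.2 CPM where the others had 294 to 300.2. For the share of *Slc25a13* in the aspartate/glutamate carriers, A178D replicate 3 had 59.7% where the others had 56.8 to 57%. Each of the 3 came from another heart, and their causes were not tested.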

How the results depend on the processing

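Of 253 alternative values for the log2 fold changes of the 15 carriers described in every heart, 240 kept their direction and stayed on their side of an adjusted p of 0.05, 5 passed it and 8 changed sign. DESeq2 called 2 carriers higher and 1 lower (306 and 380 of all genes), the offsets with the replicate block called 1 lower (*Slc25a27*, -0.58; 196 genes higher and 182 lower), and *Slc25a22* was called higher without WT replicate 4 (40 and 42). Sign changed for *Slc25a11* (-0.031 with the length and GC offsets, -0.022 with these and the replicate block), *Slc25a12* (0.058 and 0.076, and from -0.038 to 0.0018 without single hearts) and *Slc25a28* (-0.0202 and -0.0051, and from -0.024 to 0.13 without single hearts), and the share of *Slc25a13* differed by -0.39 percentage points with the offsets, against 0.87. With each heart left out, carriers called ranged from 0 to 1 higher and were 0 lower, genes called ranged from 22 to 215 higher and from 31 to 238 lower, and the carriers' median log2 fold change from 0.046 to 0.11. The length and GC offsets gave 215 genes higher, 290 lower and a median of 0.013, or 0.024 with the block. The causes were not tested. Over all tested genes there was no sign that equal replicate numbers pair the hearts (correlations of 0.0031, -0.04 and -0.042, with A178D replicate 2 lacking a partner). Such correlations cannot exclude a pairing that affects only some genes. The replicate block alone called 124 genes higher, 147 lower and 0 carriers, with a median of 0.076. For the shares, leaving out a heart cannot give an exact permutation p below 0.0667 or 0.1. Of genes in other lists, examined after seeing the data, *Gpd1* (0.34) and *Cnn1* (-0.86) lost their call with the block at log2 fold changes no smaller than without it, and with the block and the offsets *Gpd1* (0.32) was called and *Cnn1* (-0.89) was not. Depth limits *Slc25a18*, *Slc25a31* and *Slc25a53*.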
